A study of Caenorhabditis elegans with 2 samples.

Results

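The peaks described here are candidate binding sites of the transcription factor HLH-8 at the nuclear tRNA genes of Caenorhabditis elegans. They are the nuclear peaks of the pooled candidate list whose summit, the position of highest signal, lay inside or within 200 bp of a gene annotated as tRNA. There were 399 such peaks among 25882 nuclear candidates, or 1.54%. They touched 356 of the 612 nuclear tRNA genes. HLH-8 was mapped by chromatin immunoprecipitation and sequencing (ChIP-seq) with an antibody against GFP. The worms were hermaphrodites of the transgenic strain OP63, in which HLH-8 carries a GFP-FLAG tag at its C terminus. They were collected whole as late embryos, 3.5 hours after synchronization by egg bleaching, and the chromatin was sheared with a sonicator microtip. There was 1 group with 2 biological replicates and no second condition. A possible control named in the labels was not analysed here, so HLH-8 binding and any signal that such an immunoprecipitation would give at these genes without it cannot be told apart. No difference below was tested, since peaks and genes share the same 2 libraries and are not replicates, and shares are set side by side as descriptions.

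The series holds a list of candidates called on both replicates together, a list for each replicate, and a shorter optimal list of peaks that reproduced between replicates. The candidate lists are permissive and were deposited as peaks together with background, so a candidate alone is weak evidence of a site. The optimal list held 1100 nuclear peaks, which were exactly the 1100 nuclear candidates with the highest pooled signal, from 57.4 upwards. Being in that list and having a high pooled signal are therefore the same measurement. Signal is the signal value deposited for each peak, in arbitrary units. Pooled signals and those of single replicates are on different scales, since the median over all nuclear candidates was 17.1 in the pooled list, 10.6 in replicate 1 and 10.9 in replicate 2. The files hold no read counts, so the depth behind each value is unknown. The embryos were taken whole, and the labels do not give the cells in which the tagged protein was present, so a signal cannot be assigned to a cell type.

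HLH-8 is the C. elegans homologue of Twist, a basic helix-loop-helix factor that acts in the postembryonic mesoderm and binds E-boxes of the form CANNTG with its partner HLH-2. tRNA genes are transcribed by RNA polymerase III from promoters inside the gene. TFIIIC recognises an A box and a B box within the transcribed sequence and brings TFIIIB, which sits just upstream of the gene and recruits the polymerase, and transcription ends at a run of T. In C. elegans the tRNA genes are spread over all chromosomes, many on X and many in introns, and most isotypes (the amino acid a tRNA carries) are encoded by several genes of identical sequence.

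The sequences of 7 tRNA genes are shown. A strong peak had its summit inside or within 200 bp of them or, for proline, the gene represents a large identical family. The strong peaks listed for Y7A9D.t1 and F15G9.t2 ended before those genes began. They are given on the gene's own strand from the RefSeq sequence of the assembly that the files use (ce11, WBcel235), with the B box in capitals, as the letters GNTCNANNC. C04A11.t1 lies at chrX:13665555-13665673 on the plus strand, Y7A9D.t1 at chrIV:16388456-16388527 plus, R04D3.t2 at chrX:13307034-13307106 plus, F15G9.t1 at chrX:9743589-9743660 plus, F15G9.t2 at chrX:9743747-9743818 plus, C04E7.t1 at chrX:353255-353336 minus, and H06A10.t1 at chrX:13511970-13512041 minus.
C04A11.t1 (Leu, the strongest peak): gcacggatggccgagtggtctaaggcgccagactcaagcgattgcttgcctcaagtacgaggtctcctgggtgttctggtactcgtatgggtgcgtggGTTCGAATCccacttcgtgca
Y7A9D.t1 (His): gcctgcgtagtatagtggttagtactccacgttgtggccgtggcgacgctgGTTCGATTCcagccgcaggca
R04D3.t2 (Val): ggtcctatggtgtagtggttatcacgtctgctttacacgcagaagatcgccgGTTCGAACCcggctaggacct
F15G9.t1 (Ala): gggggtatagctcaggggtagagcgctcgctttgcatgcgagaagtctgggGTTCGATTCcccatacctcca
F15G9.t2 (Ala, second gene at the same peak): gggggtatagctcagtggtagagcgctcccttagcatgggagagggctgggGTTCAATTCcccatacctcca
C04E7.t1 (Leu): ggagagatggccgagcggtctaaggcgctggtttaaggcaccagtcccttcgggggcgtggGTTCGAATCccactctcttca
H06A10.t1 (Pro): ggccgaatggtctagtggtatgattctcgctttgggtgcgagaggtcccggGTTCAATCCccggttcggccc
The stricter B box core GGTTCGA, searched on the gene's strand, was in 395 of the 612 genes (64.5%) and GNTCNANNC in 603 (98.5%). Of 200550 windows of 72 bp, the median gene length, taken every 1000 bp of the nuclear genome and read on each strand, 0.256% held GGTTCGA and 3.45% held GNTCNANNC; the strict core, where it continues with the letters of the loose one, is counted in both.

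The B box letters were about as common in genes with and without peaks. The strict core was present in 64.7% of the 102 genes with an optimal peak, 64.2% of the 254 genes with a weaker candidate and 64.8% of the 256 genes with none. The loose form was present in all 102, in 250 of 254 and in 251 of 256. Of the 8 genes in which neither form was found, 4 had a candidate and none had an optimal peak. A run of 4 T within 50 bp after the gene, the usual terminator, was likewise found at 101 of 102, at 254 of 254 and at 250 of 256. These letters describe the genes and not the binding of any factor.

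Peaks at tRNA genes had higher signals than most candidates elsewhere. Their median pooled signal was 34.6 (quartiles 19.7 and 56.5, range 11.8 to 245), against 17.0 at the 25483 other nuclear candidates (quartiles 14 and 22.9). Ranked by signal among all nuclear candidates, the median peak at a tRNA gene stood at the percentile 89.2, and 183 of the 399 (45.9%) stood above the percentile 90. In the optimal list were 96 of the 399, or 24.1% (exact Clopper-Pearson 95% interval 19.9 to 28.6), where 4.25% of all nuclear candidates were. Among the other candidates 1004 of 25483 were in it, 3.94%, so the share at tRNA genes was 6.11 times that elsewhere. The peaks at tRNA genes made up 8.73% of the nuclear optimal list. Within that list their median signal was 80.7, against 78.9 for the other 1004. The highest peak at a tRNA gene ranked 19 among nuclear candidates, and the maximum elsewhere was 1132. The intervals given here and below cover counting error only.

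Candidates were densest in and right beside the genes. Those with the summit inside a tRNA gene occurred at 3294 per Mb of such sequence and those at 1 to 50 bp at 2113 per Mb. The density was 674 per Mb from 51 to 100 bp, 738 per Mb from 101 to 200 bp and 207 per Mb from 201 to 500 bp, and it was 255 per Mb beyond 5000 bp. The share in the optimal list showed a sharper step than the density. It was 33.1% of 151 peaks inside a gene (exact 95% interval 25.7 to 41.2) and 31.0% of 129 peaks within 50 bp (23.2 to 39.7), and then 5.13% of 39 and 5.00% of 80 in the next 2 classes. From 201 to 500 bp it was 3.23% of 62, close to the 3.95% beyond 5000 bp. At the limit of 200 bp, the 3 outermost peaks had summits 199, 199 and 200 bp away, beside F56F3.t1, C33G3.t2 and K09A11.t1, with signals of 19.9, 22.1 and 25.5. The first 3 beyond the limit were all 204 bp away, beside C36C9.t2, Y57A10C.t1 and T28F2.t1, with signals of 14.9, 13.6 and 14.7.

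**Figure D1:**
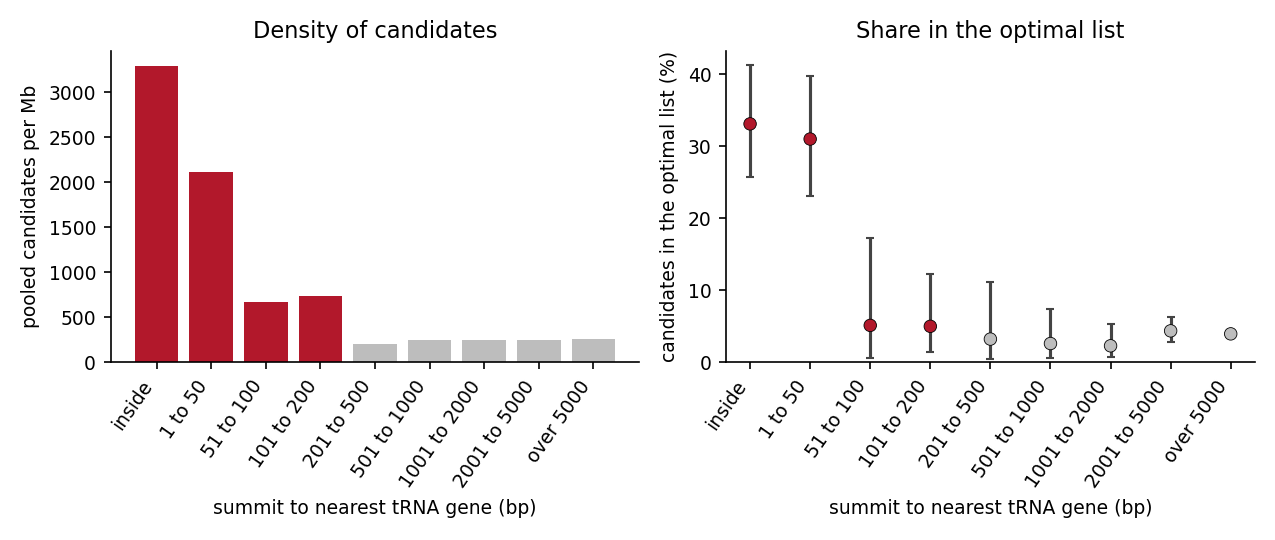
Left, pooled candidates per Mb of sequence (linear axis) and right, the percentage of them in the optimal list with exact 95% binomial intervals, both by the distance from the summit to the nearest tRNA gene; the classes up to 200 bp, which form the set, are in red and those farther away in grey. Density is 3294 per Mb inside the genes and the optimal share is above 30% only in the 2 innermost classes.

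The summits lay most often near the upstream edge of the gene, with 227 of the 399 (56.9%) within 50 bp of its 5′ end. Of all 399, 148 (37.1%) lay upstream of the gene, 151 (37.8%) inside it and 100 (25.1%) downstream. Measured along the gene's strand from its centre, the median summit position was 24.5 bp upstream (quartiles 56 bp upstream and 37.5 bp downstream, n = 399). For the 96 optimal peaks it was 32 bp upstream, with quartiles of 52.6 and 14.1 bp upstream, which for a gene of median length is close to the first base. Of these 96 summits, 80 (83.3%) lay within 50 bp of the gene's 5′ end, 39 lay upstream of the gene, 50 inside it and 7 downstream. The offset turned with the strand. On the genome's own axis the median was 33.5 bp to the left of the centre for 59 optimal peaks at plus-strand genes, and 27.5 bp to the right for 37 at minus-strand genes. The weaker 303 peaks were more spread out, with a median of 15 bp upstream and 147 (48.5%) within 50 bp of the 5′ end. Peaks with the summit within 75 bp of the centre were in the optimal list in 87 of 263 cases (33.1%) and had a median signal of 40.9, and those farther out in 9 of 136 cases (6.62%), with 22.3.

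**Figure D2:**
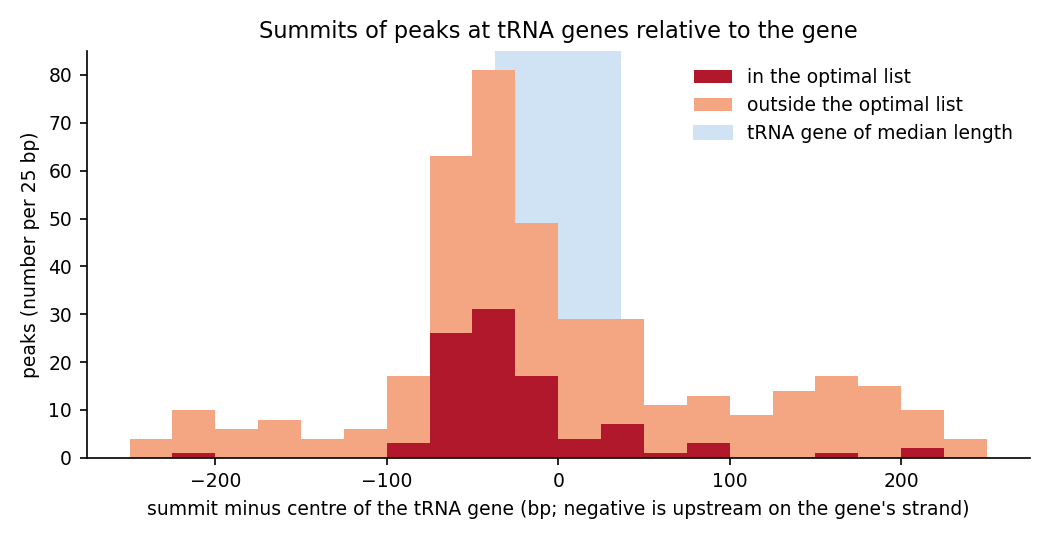
Number of peaks at tRNA genes per 25 bp of summit position relative to the gene centre on the gene's strand (bp, negative is upstream), with optimal peaks in red and the other peaks in orange stacked on them; the blue band is a tRNA gene of median length. The tallest bin, 81 peaks of which 31 are optimal, is the one from 50 to 25 bp upstream of the centre.

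Most of these peaks were seen in each replicate on its own. A replicate candidate within 200 bp of the pooled summit was found in both replicates for 284 of the 399 peaks (71.2%), where this held for 32.8% of all nuclear candidates. A further 48 had one in replicate 1 alone, 54 in replicate 2 alone and 13 in neither. The log2 ratio of replicate 2 over replicate 1 had a median of 0.14 with an SD of 0.70 (n = 284 peaks), and the ratio was 0.09 with an SD of 0.62 over all 8489 nuclear candidates so matched. The pair of values lay within 2-fold of each other for 246 of the 284 peaks (86.6%), and for 89.6% of all nuclear candidates so matched. Of the 96 optimal peaks, 95 were matched in both replicates and 91 of those (95.8%) were within 2-fold, where 1098 of all 1100 nuclear optimal peaks were matched and 93.7% of these were within 2-fold. The optimal list was made for agreement between replicates, so these match rates are no result about tRNA genes. Some matches are shared: the replicate peak of 61 of 332 matched peaks in replicate 1, and of 67 of 338 in replicate 2, also matched another pooled candidate.

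Each replicate's own list gave a similar picture at lower gene counts. Replicate 1 placed 347 candidates at 314 tRNA genes (51.3%) and replicate 2 placed 360 at 317 genes (51.8%). The genes with a candidate in both lists numbered 254, which is 80.9% of the genes of replicate 1 and 80.1% of those of replicate 2. No optimal list exists for a single replicate, so its strongest candidates, as many as the optimal list holds, were taken instead. In replicate 1, 93 of the 347 peaks (26.8%) were among these, against 4.55% of its nuclear candidates. In replicate 2, 96 of the 360 peaks (26.7%) were, against 4.59%. Counting the pooled list and both replicates, 252 genes had a candidate in all 3 lists and 216 had one in none.

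**Figure D3:**
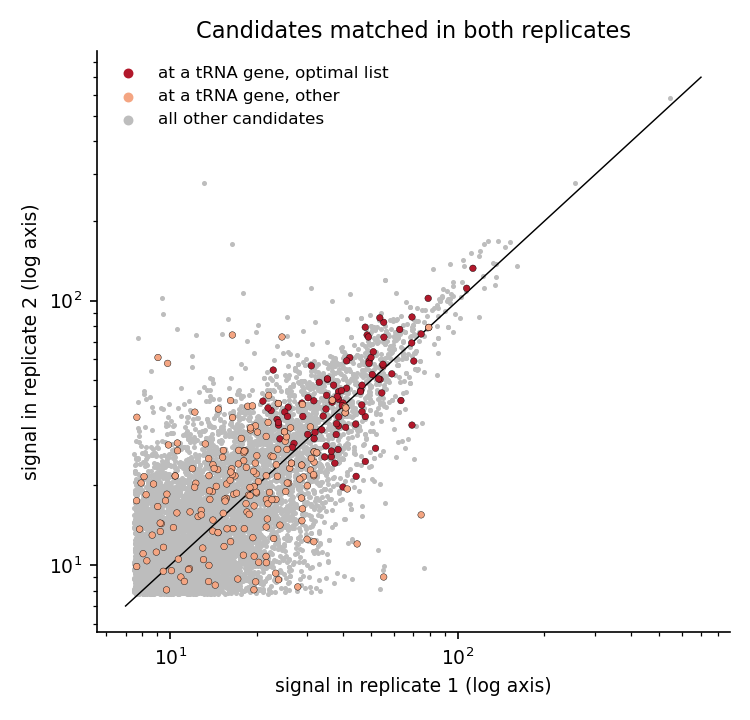
Signal in replicate 1 (x axis) against signal in replicate 2 (y axis), both logarithmic, for candidates matched in both replicates: optimal peaks at tRNA genes in red, other peaks at tRNA genes in orange, all other candidates in grey, with the line of equal signal. The red points follow the line, and 91 of the 95 lie within 2-fold of it.

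The strongest peak lay at C04A11.t1, a leucine tRNA gene that occurs once in the genome and stands between genes on X. Its signal was 245 in the pooled list, with 113 in replicate 1 and 133 in replicate 2 (mean 123 ± 14, SD, n = 2). The summit fell 55 bp upstream of the gene's centre, inside the gene near its first base, and the gene is 119 bp long, which is long for a tRNA gene. The peak of Y7A9D.t1, a histidine tRNA gene on chromosome IV, was second, at 218 in the pooled list with 107 and 111 in the replicates. It stands apart in position, because its summit was 187 bp upstream of the gene and the called peak, at 16388016 to 16388436, ended before the gene began. The E-box forms CATATG and CAGATG were both within 50 bp of that summit, and no other of the 10 strongest peaks had either. The other form searched, CACATG, was that close to the summits at C04A11.t1, M02F4.t1, R04D3.t2 and F38G1.t2. After Y7A9D.t1 came W03G11.t1, a lysine tRNA gene at 12106147 to 12106219 on X. It had 184 pooled, with 78.9 and 102 in the replicates.

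The other 7 peaks of the strongest 10 were on X with 1 exception. A single peak of signal 159 (79.2 in each replicate) covered the neighbours M02F4.t1 (Gly) and M02F4.t2 (Glu), which are transcribed away from each other, so the signal cannot be divided between them. R04D3.t2, a valine tRNA gene, had 157 pooled, with 69.3 and 86.7 in the replicates. F41D9.t3 (Asn) had 148 pooled, with 74.5 and 74.8 in the replicates. It lies in an intron of sulp-3, an anion transporter gene of the opposite strand. A peak of 143, with 55.2 and 82.8 in the replicates, had its summit within 200 bp of both F15G9.t1 and F15G9.t2 (Ala). The summit lay inside F15G9.t1, and the called peak, at 9743544 to 9743725, ended before F15G9.t2 began. F15G9.t1 lies in an intron of him-4, which encodes the extracellular matrix protein hemicentin and runs in the same direction. T21B4.t1 (Ile) was the exception, on chromosome II, with 141 pooled and with 62.8 and 77.8 in the replicates, in an intron of the collagen gene col-85. C04E7.t1 (Leu) had 139.5 pooled, with 69.1 and 69.2 in the replicates. F38G1.t2 (Asp) had 138 pooled, with 53.6 and 86.1 in the replicates. It lies in an intron of egl-17, which encodes the fibroblast growth factor that guides migrating sex myoblasts, on the other strand. As 94 bp separate the tRNA gene from the egl-17 5′ end, the signal cannot be assigned to one of them.

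Each of the 20 standard amino acids had tRNA genes with optimal peaks. The number of such genes was between 2 for Gln, His, Phe and Trp and 11 for Arg. The share of genes with any candidate was highest for Asp, at 22 of 27 (81.5%, exact 95% interval 61.9 to 93.7), and Met, at 14 of 20 (70%). It was lowest for His, at 8 of 20 (40%, interval 19.1 to 63.9), and Val, at 13 of 31 (41.9%). Most of these intervals overlap, and the order of isotypes between the extremes is not resolved by these counts. The order by candidates was not the order by signal: the 15 peaks at Val genes had the highest median signal of any isotype, 53.9, with 6 in the optimal list, and the 17 at Gln genes the lowest of the 20 amino acids, 21.8, with 2. The single selenocysteine tRNA gene, K11H12.t1, had a candidate of 34.1 with its summit upstream of the gene, which lies in an intron of K11H12.8, 75 bp from a protein-coding 5′ end. Of 5 tRNA genes without an isotype in the annotation, 1 had candidates, DY3.t2, at 22.3.

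The strongest peak of each remaining isotype was in the optimal list. On X these were C28G1.t1 (Glu) at 132, R01H5.t1 (Thr) at 129, C02B4.t2 (Tyr) at 127, R04A9.t1 (Gln) at 110.4, C02F12.t1 (Met) at 103, H06A10.t1 (Pro) at 97.5, E03E2.t1 (Ser) at 93.3 and T28B4.t1 (Phe) at 77.4. C28G1.t1 overlaps an exon of C28G1.2, 97 bp from the 5′ end of that gene, so its signal cannot be assigned to one of them. C02B4.t2 lies in an intron of nhr-17, a nuclear receptor gene. The weakest of these leaders, T28B4.t1, had 51.8 in replicate 1 and 27.6 in replicate 2 (mean 39.7 ± 17.0, SD, n = 2). On chromosome III were sup-5 (Trp) at 107, known for its amber suppressor alleles, and F56F3.t1 (Arg) at 100.2. The leading Cys gene, C37A2.t1, had 109.9 and lies in an intron of cye-1, which encodes cyclin E. Its replicates had 54.9 and 57.5.

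The leading peak of each autosome was weaker than that of X. Chromosome II had T21B4.t1, C04A2.t1 (Leu, 120.1) and F33G12.t1 (Ile, 110.3), and chromosome V had F15B9.t1 (Ala, 103.4), F57F5.t1 (Ile, 103.4) and K06A4.t1 (Ala, 86.1). Chromosome III had sup-5, T15B12.t1 (Met, 101.5) and F56F3.t1. Chromosome IV had F29C4.t1 (Arg, 81.7) and B0350.t1 (Lys, 78.0) after Y7A9D.t1. Chromosome I had F47G6.t1 (Arg, 71.4) and F22G12.t1 (Val, 69.2) after C37A2.t1. Most of these lay in introns, among them those of the sperm gene spe-15 (F47G6.t1) and of the collagen gene col-99 (F29C4.t1).

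X holds 276 of the 612 tRNA genes, 45.1%. It had 167 of the 399 peaks (41.9%) but 55 of the 96 optimal ones (57.3%). The share of genes with a candidate was lower on X than on the autosomes, at 150 of 276 (54.3%, exact 95% interval 48.3 to 60.3) against 206 of 336 (61.3%, 55.9 to 66.5), and these intervals overlap. The share with an optimal peak was higher on X, at 59 of 276 (21.4%) against 43 of 336 (12.8%). The median signal of its peaks was 38.9, against 31.3 for the autosomal peaks. The replicates showed the same order, with medians of 25.4 against 19.5 in replicate 1 and 26.2 against 20.6 in replicate 2. Counted by peaks and not by genes, 55 of 167 on X were optimal (32.9%), against 41 of 232 on the autosomes (17.7%). Away from tRNA genes the gap in this share of peaks was not seen at this size. There 3.99% of the other 4391 candidates on X were in the optimal list, against 3.93% of the 21092 other autosomal candidates. Among the autosomes the share of genes with an optimal peak was lowest on chromosome I, at 9.09%, and highest on IV, at 18.3%.

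Counted as 1 class, clustered tRNA genes had a lower share of genes with a peak than genes that stand alone. Genes with another tRNA gene within 2000 bp numbered 271, or 44.3% of all, in 112 clusters, and they had 140 of the 399 peaks (35.1%). Of the clustered genes 142 (52.4%) had a candidate and 33 (12.2%) an optimal peak, where 214 (62.8%) and 69 (20.2%) of the 341 single genes did. The share with an optimal peak was 15.1% in pairs, 9.52% in groups of 3 and 5.26% in larger groups. The share with any candidate did not follow that order, at 51.2% in pairs, 66.7% in groups of 3 and 45.6% in larger groups. On X the share with an optimal peak was 15.0% of 153 clustered genes against 29.3% of 123 single genes. On the autosomes that share was 8.47% of 118 against 15.1% of 218, so both parts of the genome showed the same order. Neighbouring genes share peaks, since 33 of the 399 peaks were within 200 bp of 2 genes, and the counts of genes in a cluster are not independent.

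The largest clusters, all on X, were mostly without strong peaks. The cluster of 8 genes that begins with F22F1.t9, with Asp, Ser, Met and Ile genes over 4162 bp, had candidates at 3 genes and an optimal peak at 1, F22F1.t6 (Met, 67.1). A cluster of 6 identical His genes, F28H6.t2 to F28H6.t5 over 1966 bp, had no candidate. The 5 genes from K01A12.t1 (Arg and Cys) had 1 peak, of 27.8, between K01A12.t4 and K01A12.t2. The 5 Cys and Gly genes from R04E5.t5 had 2 peaks of 12.0 and 11.9, and the 5 Gln genes from H08J11.t5 had 2, of 19.2 and 11.9. The clusters differed in how much of their sequence is repeated. The share of 31-mers that occur once in the nuclear genome, over a gene with 200 bp on either side, had a median of 23.1% in the F28H6 cluster and 78.1% to 86.4% in the other 4, against 87.4% over all tRNA genes. Of 28 tRNA genes with a share under 60%, 2 had a candidate (7.14%) and none an optimal peak. Above that the shares did not rise steadily with uniqueness. Candidates were at 56.5% of the 85 genes with a share of 60 to 80%, at 64.2% of the 399 with 80 to 90% and at 50% of the 100 with 90% or more, and optimal peaks at 15.3%, 19.8% and 10% of them. These classes also differ in copy number: the median number of genes of identical sequence, the gene itself included, was 11, 12 and 1 in the same order. Uniqueness and copy number were not separated here. The labels and headers do not say how reads matching several places were treated, and the part of repeated sequence in the missing candidates was not tested.

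Genes of identical sequence differed widely in signal. The 612 genes have 200 distinct sequences, and 25 families of 8 or more identical genes hold 361 of them. Each of the 25 families had a gene with an optimal peak and a gene with no candidate, although in the family of 20 Glu genes the single gene with one was M02F4.t2 itself, through the peak it shares with M02F4.t1. Among the family members with a candidate, the strongest signal was from 3.05 times the weakest, in an Arg family of 10 genes, to 15.1 times, in the Lys family of W03G11.t1 with its 25 genes. The largest family, 29 Gly genes that include M02F4.t1, had candidates at 23 genes and optimal peaks at 4, with signals from 12.0 to 159. The 24 Pro genes with the sequence of H06A10.t1 had candidates at 12, with 5 optimal peaks and signals from 12.0 to 97.5. Sequences that occur in a single gene had optimal peaks at 12 of 143 genes (8.39%). Those with 2 to 5 copies had them at 23 of 82 (28.0%) and those with more than 20 copies at 18 of 99 (18.2%).

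**Figure D4:**
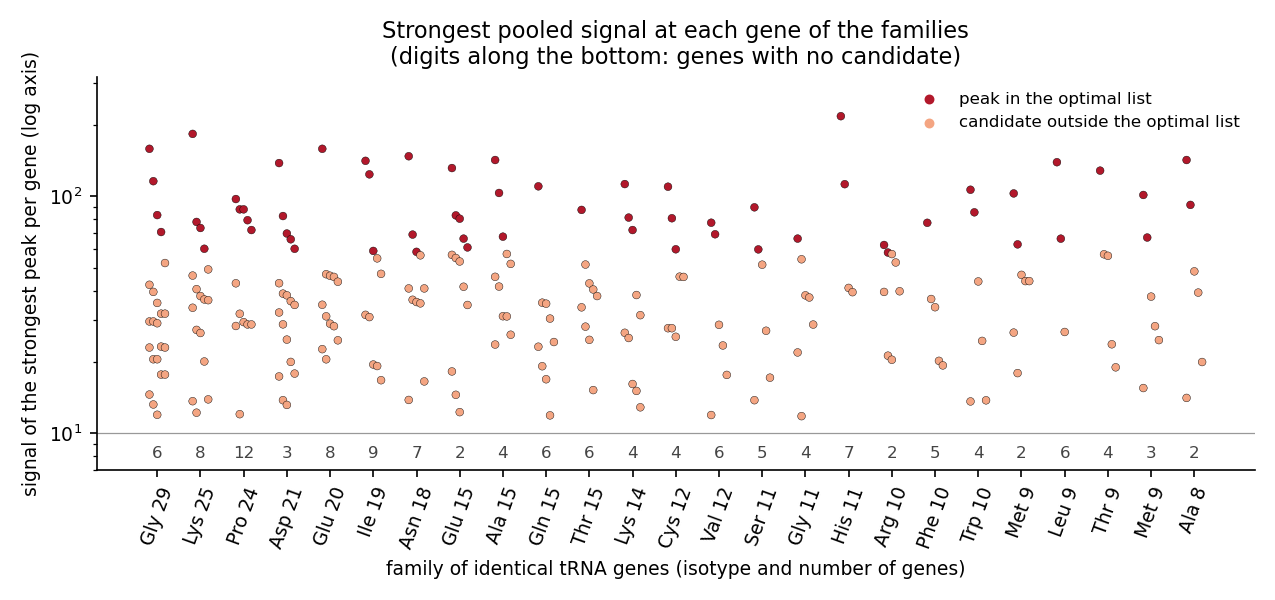
Pooled signal of the strongest peak at each gene (log axis), with one column per family of 8 or more identical tRNA genes labelled by isotype and number of genes; red points are optimal peaks, orange points weaker candidates, and the digits along the bottom count the genes with no candidate. Every family has at least 1 red point and at least 2 genes with no candidate.

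The His family shows this within 11 genes of one sequence, that of Y7A9D.t1 above. Y7A9D.t1 had a pooled signal of 218 and C06G1.t1 of 113 (50.8 and 64.1 in the replicates), both optimal. The peak of 218 had its summit 187 bp upstream of Y7A9D.t1 and ended before the gene began. A second candidate, with its summit inside Y7A9D.t1, had 29.9 and was not optimal. Y65A5A.t4 had 41.1 (19.9 and 22.1) and W09G10.t1 had 39.4 (15.7 and 20.3). The other 7, on X, had no candidate, and 6 of them form the F28H6 cluster. As the genes are identical, only the surrounding sequence could tell them apart. At most genes of the F28H6 cluster that sequence is largely repeated too. The share of unique sequence, as measured for the clusters above, was 5.2% at F28H6.t3 and F28H6.t6, 5.7% at F28H6.t4, 40.5% at F28H6.t7 and 48.6% at F28H6.t5. It was 84.8% at F28H6.t2, 79.9% at C49F5.t1 and from 64.9% to 87.8% at the genes with a candidate. Its part in the missing candidates was not tested. The 50 bp upstream of 4 genes are shown, ending with the first 10 bases of the gene in capitals. They are on the gene's strand, in ce11, for Y7A9D.t1 at chrIV:16388456-16388527 plus, C06G1.t1 at chrX:16634830-16634901 minus, C49F5.t1 at chrX:11993521-11993592 minus and F28H6.t2 at chrX:14135045-14135116 plus, which are the coordinates of the genes.
Y7A9D.t1 (optimal peak): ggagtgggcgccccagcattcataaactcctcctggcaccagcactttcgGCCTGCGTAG
C06G1.t1 (optimal peak): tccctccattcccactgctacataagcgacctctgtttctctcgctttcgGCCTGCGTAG
C49F5.t1 (no candidate): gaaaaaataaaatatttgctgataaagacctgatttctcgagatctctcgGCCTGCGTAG
F28H6.t2 (no candidate): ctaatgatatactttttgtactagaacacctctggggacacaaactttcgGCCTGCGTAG
The G and C content of these 50 bp was 60% and 52% at the genes with optimal peaks, and 32% and 38% at the genes shown with no candidate. At Y7A9D.t1 the summit of the optimal peak lay outside these 50 bp, so they do not describe the sequence under that summit. Over all 11 genes the ranges overlapped, with 40% to 60% at the 4 genes with a candidate and 32% to 48% at the 7 with none.

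Over all tRNA genes the sequence upstream was richer in G and C where there was a peak. The median G and C content of the 50 bp before the gene was 46.0% at the 102 genes with an optimal peak, 44.0% at the 254 with a weaker candidate and 38.0% at the 256 with none (quartiles 42.0 and 52.0, 38.0 and 52.0, and 32.0 and 44.0). Among identical genes, those with any candidate, optimal or weaker, were compared only with those that had none. In 20 of the 25 families the median was higher at the genes with a candidate, in 4 it was lower and in 1 equal, and the median difference over families was 8 percentage points (range -3 to 18). Around the summits themselves the median content of 101 bp was 48.5% at peaks of tRNA genes against 40.6% at other candidates. Among optimal peaks it was 51.5% at tRNA genes against 48.5% elsewhere. As 151 of the 399 summits lay inside the tRNA gene, these windows often include the gene and do not describe the flanking sequence alone. G and C content also affects how well fragments are amplified and sequenced, and its part in these signals was not tested.

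E-boxes of any form were about as common at these peaks as elsewhere, and single forms differed. Within 50 bp of the summit, on either strand, 36.6% of the 399 peaks held CANNTG, against 35.1% of other candidates, and among optimal peaks 41.7% of 96 against 49.6% of 1004. CAGATG was at 3.26% of the peaks against 6.39%, and at 4.17% of optimal peaks against 15.3%. CATATG was at 4 peaks in all, 1.00% against 2.15%. CACATG had the higher share at tRNA genes, 11% of the peaks against 4.60%, and 20.8% of optimal peaks against 10.7%. Part of this form belongs to the tRNA genes: of 47 CACATG words near the summits 23 lay inside the gene, 11 of them from base 36 of Asp genes and 11 from base 4 of Glu genes. The word is part of 26 of the 27 Asp genes and 16 of the 41 Glu genes. Of the 179 E-boxes of any form near these summits, 52 (29.1%) lay wholly inside the tRNA gene.

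The share of peaks inside protein-coding genes was close to that of the tRNA genes themselves. Of the 612 tRNA genes 290 (47.4%) lie wholly within a protein-coding gene, and 190 of the 399 peaks (47.6%) were at such genes. Optimal peaks were at 22 of 166 genes (13.3%) on the host's strand and at 22 of 124 (17.7%) on the opposite strand. Outside any host they were at 58 of 322 (18.0%). The median signals of all peaks in these classes, optimal or not, were 33.9, 35.8 and 34.8. Near and far from a protein-coding start the shares were close: 15.3% of 131 tRNA genes within 500 bp of a protein-coding 5′ end had an optimal peak, and 15.6% of 237 genes over 2000 bp away did. For comparison, a window of the same width around the 5′ ends of 19973 nuclear protein-coding genes, 236 bp to either side, held a candidate at 18.3% and an optimal peak at 1.86% of the genes, where tRNA genes had 58.2% and 16.7%.

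Other small RNA genes differed in how often they had peaks. Of 346 snoRNA genes 40.8% had a candidate, and 48 of their 159 peaks (30.2%, exact 95% interval 23.2 to 38.0) were optimal, an interval that overlaps that of the tRNA genes. Of 129 snRNA genes 23.3% had a candidate, with 7 of 37 peaks optimal (18.9%). Of 261 miRNA genes 22.6% did, with 4 of 59 peaks optimal (6.78%, interval 1.88 to 16.5). A list of other RNA genes transcribed by polymerase III was looked up, without U6 snRNA. The RNase P RNA gene rpr-1, whose product trims the 5′ ends of tRNA precursors, had an optimal peak of 156 inside the gene (76.4 and 83.1 in the replicates). The RNase MRP RNA gene mrpr-1 had 76.3 and the signal recognition particle RNA genes srpr-1.2 and srpr-1.1 had 71.8 and 60.4, all optimal. The Y RNA gene yrn-1 had a weak candidate of 15.2, and none of 16 genes for 5S rRNA, which polymerase III transcribes from a promoter of another type, had a candidate. Most of the 5S genes are tandem copies on chromosome V, while rrn-4.16 is on chromosome I and rrn-4.15 lies apart on V. The share of unique 31-mers was not measured for any of them.

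Peaks were counted at the genes of the polymerase III machinery as a second list. Of 13 genes, 1 had an optimal peak between 2000 bp upstream and 500 bp downstream of its 5′ end, 7 had a weaker candidate there and 5 had none, where over 19973 protein-coding genes 5.42% had an optimal peak and 50.7% any candidate. The one was rpac-19, a subunit shared by polymerases I and III, with a peak of 68.4 centred 138 bp upstream (43.7 and 27.9 in the replicates). The polymerase subunit genes rpc-1 and rpc-2 had candidates of 31.2 and 12.2 and rpc-11 and rpc-25 had none, and mafr-1, the homologue of the polymerase III repressor Maf1, had 32.1. Of the TFIIIB genes, brf-1 had no candidate and tbp-1, the TATA-binding protein gene, had one of 16.1. Of the TFIIIC genes, tftc-1 and tftc-3 had none and tftc-5 had one of 18.9.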

How the data were processed

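Both replicates and the pooled and optimal lists were read as deposited, in ce11. Each line gives a peak's interval, its signal value (column 7) and the summit as an offset (column 10). The deposited signal was used only within a list. Neither labels nor headers name the aligner or the caller (not given in the sources used here). tRNA genes came from Ensembl release 115 (WBcel235), and isotypes, symbols and sequence from RefSeq of the same assembly, which lists the same 612 genes. A pooled peak was in the optimal list when chromosome, start and summit were the same, and was matched to the strongest candidate of a replicate within 200 bp. Clusters joined tRNA genes with gaps up to 2000 bp. With 1 group no test was made; shares have exact 95% Clopper-Pearson intervals, which count peaks or genes as if independent. Genes were named as those of the 10 strongest peaks, the strongest per isotype, the 3 strongest per chromosome, the nearest to the limit, the strongest in each host orientation and the 5 largest clusters; other named genes are in the lists of polymerase III genes or in the His family, which was chosen after its values were seen. The members and lists were chosen with earlier results of these data known. Scripts (Python 3.11.15, pandas 2.3.3, scipy 1.17.1) were tested on simulated data. Alternatives changed the distance limits, the list, the optimal threshold, the annotation and the peaks counted per gene. The ce10 lists were not used here.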

Additional observations from a re-analysis of the deposited data

How the results depend on the processing

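Of 67 alternative values, 47 stayed within the interval of the reported value (1.5 times for the count of peaks) and 20 did not. Only the log2 ratio of the replicates and the summit offset could change sign, and neither did. With the summit required inside the gene there were 151 peaks, of which 33.1% were optimal, at 24.7% of the genes, with a median percentile of 91.9 and an offset of -15 bp. At 100 bp the optimal share was 28.8%, the genes 51% and the percentile 91.1. At 500 bp the genes were 68.0%, the share matched in both replicates 65.9% and the percentile 85.6. The genes with a candidate were 51.3% to 51.8% in the lists that leave out one replicate each. Matched in both replicates were 55.6% at a matching distance of 100 bp, against 22.7% of all candidates, and 79.4% at 500 bp, against 44.0%. With each replicate peak counted once, an alternative chosen after seeing the data, it was 61.7%, against 28.2%. Among the 550 strongest peaks of the optimal list were 13.0% of the peaks at tRNA genes, against 2.13% of all candidates. With 1 peak per gene the percentile was 90.5. Clustered genes had 28.6% of peaks at 1000 bp, against 38.6% of genes, and 44.4% at 5000 bp, against 53.1%. Fewer peaks or genes enter under the narrower limits by construction. The RefSeq genes gave the same values. No paired analysis was possible because there is 1 group. Without read counts, the absence of a candidate cannot be told apart from low coverage, and local background was not measured, as the control was not analysed here.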
